A study of Mus musculus with 6 samples.

Results

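The 10 genes described here are the hormones and secretory markers of enteroendocrine cells: Gcg, Pyy, Insl5, Nts, Sct, Sst, Tph1, Chga, Chgb and Neurod1. They were chosen by name, and every probe set annotated to them was taken, which gave 11 probe sets of the 45101 on the array and 10 of the 18193 genes with a probe set. Signals were measured in colon of C57BL/6 mice, 6-8 weeks old, that had all received ethanol by rectal injection 24 h before harvest. By their labels, 2 arrays were from wild type mice (WT), 2 from GPR41 KO mice and 2 from GPR43 KO mice, which gave 3 groups. GPR41 and GPR43 are receptors for short-chain fatty acids, encoded by Ffar3 and Ffar2. All comparisons are thus between genotypes after the injection, since uninjected colon was not analysed here. The labels do not give the deleted part of either allele, whether the WT mice were littermates of the KO mice, or whether arrays of 1 group represent different mice, so the p-values cover just the spread from sample to sample, and that spread may be technical.

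Enteroendocrine cells are scattered hormone-secreting cells of the gut epithelium that sense the contents of the lumen and release peptides and serotonin. L cells, the main peptide-secreting type of the distal gut, make proglucagon products, peptide YY and, in the colon, insulin-like peptide 5. Enterochromaffin cells make serotonin, D cells make somatostatin, and granins fill the secretory granules of all of these types. Receptors for short-chain fatty acids are known on L cells, where their activation releases hormone.

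Whole-array facts bear on these genes in a few places. The knocked-out gene Ffar2 went against 1 label: relative to the WT mean, its probe sets stood at 16.4% and 9.56% in GPR43 KO replicate 2, but at 138% and 143% in the library labelled GPR43 KO replicate 1. In the GPR41 KO arrays they stood at 154% to 168%. The GPR43 KO group, kept by its labels, thus joins 1 array with low and 1 with high Ffar2 signal. Its means, SE and p-values may not describe 1 genotype. No probe set carried the symbol Ffar3, which left the label of the GPR41 KO arrays unchecked. The summed signal of 13 neutrophil markers was 93445 and 176710 in WT and 1213 to 3496 in the arrays labelled KO, and all 10 tested fell in both KO groups. The 8 pan-epithelial markers summed to 162243 and 187730 in WT, to 210396 and 197875 in GPR41 KO, and to 229644 and 214864 in GPR43 KO. WT replicate 1 also had the highest summed signal of the 8 pancreatic acinar markers with a probe set, 5340.5. This sum was 972.9 in WT replicate 2 and 1778 to 2941 in the arrays labelled KO. Ctrb1 was at 1120 in WT replicate 1 and at 12.5 to 57.9 in the other arrays, and Cpa1 at 491.8 against 3.54 to 11.9. Ctrb1 and Cpa1 were below the filter on weak genes and were not tested. Clps of the same list was instead higher in the arrays labelled KO, at 1449 to 2571 beside 1123 and 561.2 in WT. In bulk tissue, fewer cells of a type and less RNA per cell cannot be told apart.

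The starts of Gcg, Insl5, Nts and Sct are shown because these 4 genes had the largest differences between genotypes. All 10 genes matched RefSeq by Entrez identifier (GRCm38.p6), and all 10 had a start in its promoter table. Each line gives the 150 bases before a start of that table, 5′ to 3′ on the minus strand, on which all 4 genes lie. Capitals mark the TATA motif TATAAA, the E-box CATCTG and the GC box GGGCGG, each searched on both strands, and no capitals mark a line without a match.
Gcg: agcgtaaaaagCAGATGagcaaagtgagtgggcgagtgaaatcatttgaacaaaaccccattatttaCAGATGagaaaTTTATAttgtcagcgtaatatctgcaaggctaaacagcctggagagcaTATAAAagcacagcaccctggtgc
Insl5: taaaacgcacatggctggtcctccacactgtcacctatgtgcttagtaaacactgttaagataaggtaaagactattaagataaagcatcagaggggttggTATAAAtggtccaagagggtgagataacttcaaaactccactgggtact
Nts: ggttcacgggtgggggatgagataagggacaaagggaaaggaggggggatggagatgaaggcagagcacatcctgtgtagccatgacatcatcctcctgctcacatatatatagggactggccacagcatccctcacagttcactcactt
Sct: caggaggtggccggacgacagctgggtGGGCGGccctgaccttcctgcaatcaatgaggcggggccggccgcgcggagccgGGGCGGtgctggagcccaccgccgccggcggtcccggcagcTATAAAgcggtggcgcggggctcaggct

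The windows lie at chr2:62483654-62483803 for Gcg, chr4:103026729-103026878 for Insl5, chr10:102490419-102490568 for Nts and chr7:141279134-141279283 for Sct (GRCm38.p6, minus strand). Insl5 has 2 annotated starts, and the window is that of the downstream start, inside the RefSeq span of the gene. The Sct window also overlaps the RefSeq span of its gene, which ends at 141279174, and its TATAAA lies in the overlap. For Sct the start used is thus not the outer end of that span. Over the 250 bases before the start, TATAAA stood in front of 3 of the 10 genes (Gcg, Insl5 and Sct) and in 12.4% of all 32851 windows. CATCTG stood in front of the same 3 genes and in 14.4% of all windows, with a pair of copies in the Gcg line above. The cyclic AMP response element TGACGTCA stood in front of Chgb and Sst and in 1.55% of all windows, and GGGCGG in front of 6 of the 10 genes and in 32.7% of all windows. A gene was counted when any of its listed starts had the motif, whereas the percentages are of single windows, so these are unlike measures. A match describes these letters and shows no bound factor. The Sct and Tph1 genes share chromosome 7 with Ffar2, at distances of 110.5 Mb and 15.8 Mb.

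The proglucagon gene Gcg was lower and the insulin-like peptide gene Insl5 higher in colon of both KO groups than in WT. Gcg signal was 1.85 times as high in WT as in GPR41 KO and 1.89 times as high as in GPR43 KO, while Insl5 signal was 1.46 and 1.57 times the WT mean. The neurotensin gene Nts was higher in GPR41 KO, at 2.19 times the WT mean. Peptide YY, secretin (Sct), somatostatin, serotonin synthesis, the granins and Neurod1 did not pass the test in either group. In all, 2 of the 10 genes rose, 1 fell and 7 did not pass in GPR41 KO, and 1 rose, 1 fell and 8 did not pass in GPR43 KO. Among all 10916 genes tested, 4.99% passed in GPR41 KO (1.88% higher and 3.11% lower) and 3.96% in GPR43 KO (1.55% higher and 2.41% lower). These were 205 higher and 340 lower genes in GPR41 KO, and 314 higher and 339 lower with each array centred on its median, a setting in which Gcg, Insl5, Nts and Sct passed there. The median log2 fold change of the 10 genes was 0.24 in GPR41 KO and 0.19 in GPR43 KO, against 0.00057 and 0.030 over all genes tested. The test was limma's moderated test on log2(signal + 18.4) over all genes with Benjamini-Hochberg adjustment, and a gene passed at an adjusted p under 0.05. Both comparisons share the WT arrays, so each is given by its own values.

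These counts depended on single libraries. For GPR41 KO the count of 3 was 2 without WT replicate 1 (Gcg and Insl5) and 0 after leaving out either GPR41 KO array. It was 3 without WT replicate 2 or either GPR43 KO array, then made up of Gcg, Nts and Sct in place of Insl5. For GPR43 KO the count of 2 was 1 (Gcg) after leaving out either GPR41 KO array and 0 after leaving out either GPR43 KO array, and without WT replicate 2 the pair was Gcg and Sct. A fit that leaves 1 array in a group assumes that it varies like the other groups.

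**Figure D1:**
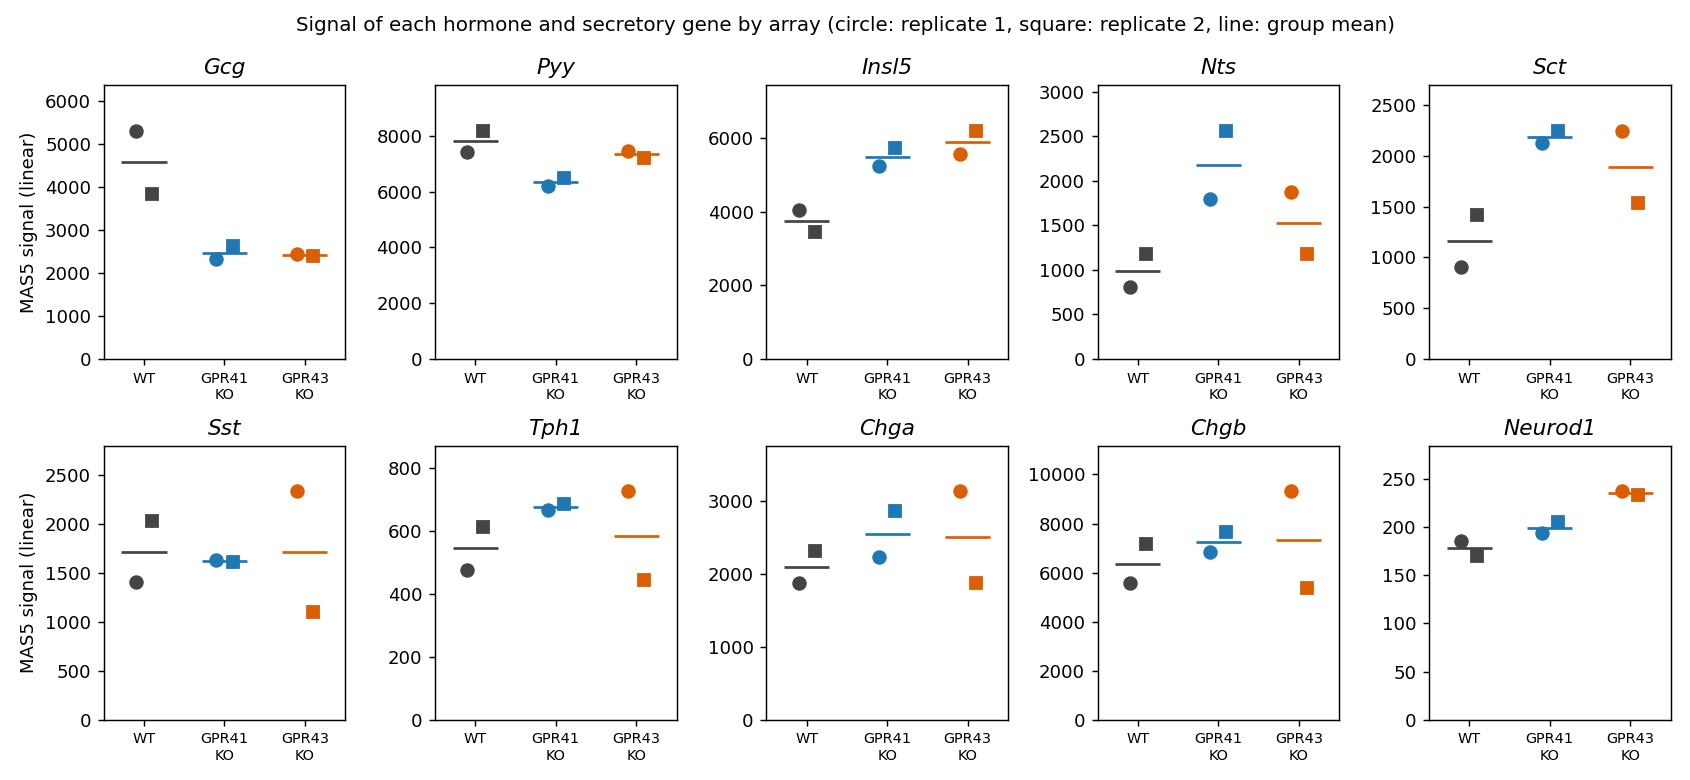
MAS5 signal (linear scale, from 0) of the 10 genes in each of the 6 arrays, with WT in grey, GPR41 KO in blue and GPR43 KO in orange; circles are replicate 1, squares replicate 2 and lines group means. Gcg lies at 3837 and 5307 in the WT arrays and between 2315 and 2615 in the 4 arrays labelled KO, and Insl5 shows the opposite order.

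Gcg encodes proglucagon, which L cells process to glucagon-like peptides. It occupies chromosome 2 from 62474530 to 62483653 (GRCm38.p6), and 1 probe set reads it. Its signal was 5307 and 3837 in WT, 2315 and 2615 in GPR41 KO, and 2443 and 2397 in GPR43 KO. The 4 arrays labelled KO lay close together and all below the lower WT array, and the WT arrays differed from each other by 1.38 times. The log2 fold change was -0.87 ± 0.16 in GPR41 KO (SE, n = 2 per group, limma adjusted p = 0.0182) and -0.89 ± 0.16 in GPR43 KO (limma adjusted p = 0.0200). The 95% intervals of the ratio of WT to KO were 1.42 to 2.36 and 1.44 to 2.40. Without a GPR41 KO array the adjusted p in limma for GPR41 KO was 0.134 (replicate 1 left out) and 0.0660 (replicate 2), and without a GPR43 KO array it was 0.0844 and 0.128 for GPR43 KO. The higher WT value was in the array with the highest summed acinar signal. Leaving that array out gave log2 fold changes of -0.64 for GPR41 KO (limma adjusted p = 0.0309) and -0.66 for GPR43 KO (limma adjusted p = 0.0288). Islet cells of the pancreas also express Gcg. The 4 islet markers with a probe set summed to 648.4 and 391.8 in WT, 641.1 and 770.2 in GPR41 KO, and 876.1 and 871.6 in GPR43 KO, and 0 of the 2 tested passed in limma in either group (0 and 1 at an unadjusted p under 0.05), while 1 passed in each without WT replicate 1. The insulin gene Ins2, below the filter on weak genes, was at 18.2 and 11.1 in WT and 12.9 to 112.9 in the arrays labelled KO. The pancreatic polypeptide gene Ppy was at 516.2 and 252.0 in WT and 441.6 to 731.0 in the arrays labelled KO. The zinc transporter gene Slc30a8, also below the filter, was at 17.4 and 25.3 in WT and 2.14 to 3.49 in the arrays labelled KO. The part of pancreatic tissue in the level of Gcg in WT was not tested.

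Pyy encodes peptide YY, a satiety hormone that L cells release together with proglucagon products. It lies on chromosome 11 at 102106676 to 102107832. Its signal was 7418 and 8184 in WT, 6210 and 6492 in GPR41 KO, and 7464 and 7204 in GPR43 KO. Both GPR41 KO arrays lay below both WT arrays, while the GPR43 KO arrays overlapped with WT. This gave a log2 fold change of -0.29 ± 0.12 in GPR41 KO (limma adjusted p = 0.203) and -0.087 ± 0.12 in GPR43 KO (limma adjusted p = 0.722). The 95% interval of the ratio of KO to WT was 0.680 to 0.977 in GPR41 KO and 0.785 to 1.13 in GPR43 KO. The interval of Pyy in GPR41 KO thus lay below 1, but the gene did not pass after adjustment over all genes.

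Insl5 encodes insulin-like peptide 5, a hormone of colonic L cells. It lies on chromosome 4 at 103017872 to 103027271. Its signal was 4053 and 3451 in WT, 5238 and 5735 in GPR41 KO, and 5565 and 6204 in GPR43 KO. All 4 arrays labelled KO lay above both WT arrays. The log2 fold change came to 0.55 ± 0.13 in GPR41 KO (limma adjusted p = 0.0499) and 0.65 ± 0.13 in GPR43 KO (limma adjusted p = 0.0304). The first call lay at the threshold and was lost with most other settings, among them no filter on weak genes (limma adjusted p = 0.0717) and quantile normalization (0.0653). In GPR43 KO the limma adjusted p was 0.109 without WT replicate 2, 0.203 without GPR43 KO replicate 2 and 0.0844 without the library labelled GPR43 KO replicate 1. Leaving out either GPR41 KO array, which changes only the shared estimate of spread, gave 0.0570 and 0.0559. Gcg and Insl5, hormones of the same cell class, thus stood on opposite sides of WT in each KO group.

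Nts encodes neurotensin, a peptide of enteroendocrine cells that promotes fat absorption. It lies on chromosome 10 at 102481756 to 102490418. Its signal was 810.2 and 1177 in WT, 1792 and 2564 in GPR41 KO, and 1876 and 1175 in GPR43 KO. Both GPR41 KO arrays lay above WT, whereas the library labelled GPR43 KO replicate 1 lay above WT and GPR43 KO replicate 2 at the level of the higher WT array. The fit gave a log2 fold change of 1.12 ± 0.27 in GPR41 KO (limma adjusted p = 0.0499) and 0.60 ± 0.27 in GPR43 KO (limma adjusted p = 0.258). The difference of GPR43 KO from GPR41 KO was -0.52 ± 0.27 on the log2 scale (limma adjusted p = 0.870), with a 95% interval of -1.13 to 0.082. The call in GPR41 KO was lost without WT replicate 1 (log2 0.86, limma adjusted p = 0.102) and without either GPR41 KO array (1.38, 0.0850 for replicate 1 left out, and 0.86, 0.245 for replicate 2). It was also lost with no filter on weak genes (limma adjusted p = 0.0738) and with quantile normalization (0.0649). The value of Nts in GPR43 KO was 0.93 without GPR43 KO replicate 2 and 0.26 without the library labelled GPR43 KO replicate 1.

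Sct encodes secretin, which stimulates bicarbonate secretion and is made in S cells and by other enteroendocrine cells. It lies on chromosome 7 at 141278329 to 141279174. Its signal was 901.5 and 1417 in WT, 2124 and 2242 in GPR41 KO, and 2248 and 1536 in GPR43 KO. All 4 arrays labelled KO lay above both WT arrays, GPR43 KO replicate 2 by the smallest margin. The log2 fold change was 0.94 ± 0.23 in GPR41 KO (limma adjusted p = 0.0591) and 0.71 ± 0.23 in GPR43 KO (limma adjusted p = 0.142). The 95% interval of the ratio of KO to WT was 1.32 to 2.77 and 1.13 to 2.36. Sct passed in limma in GPR41 KO with each array centred on its median (log2 1.03, adjusted p = 0.0126) and without WT replicate 2 (1.26, 0.0132). Without WT replicate 2 it also passed in GPR43 KO (1.03, limma adjusted p = 0.0417).

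Sst encodes somatostatin, the inhibitory peptide of D cells, which enteric neurons also make. It lies on chromosome 16 at 23889573 to 23891342. Its signal was 1404 and 2031 in WT, 1638 and 1615 in GPR41 KO, and 2335 and 1098 in GPR43 KO. The GPR43 KO arrays spanned the range of all 6 arrays and differed by 2.13 times. This gave a log2 fold change of -0.054 ± 0.31 in GPR41 KO (limma adjusted p = 0.949) and -0.075 ± 0.31 in GPR43 KO (limma adjusted p = 0.923). The 95% interval of the ratio of KO to WT ran from 0.591 to 1.57 in GPR41 KO and from 0.582 to 1.55 in GPR43 KO. Ratios of Sst inside these bounds are compatible with the 2 arrays a group, and the bounds are no limit of detection.

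Tph1, the rate-limiting enzyme of serotonin synthesis in enterochromaffin cells, lies on chromosome 7 at 46644641 to 46672537. Its signal was 477.4 and 613.0 in WT, 666.8 and 686.6 in GPR41 KO, and 726.1 and 443.5 in GPR43 KO. The GPR41 KO arrays lay above WT, and the GPR43 KO arrays lay on both sides of it. The log2 fold change came to 0.31 ± 0.24 in GPR41 KO (limma adjusted p = 0.527) and 0.068 ± 0.24 in GPR43 KO (limma adjusted p = 0.908).

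Chga and Chgb encode chromogranin A and secretogranin I, the acidic granule proteins that mark enteroendocrine cells as a class. Chga lies on chromosome 12 at 102554941 to 102565027, and Chgb on chromosome 2 at 132781642 to 132795079. The Chga signal was 1872 and 2310 in WT, 2232 and 2858 in GPR41 KO, and 3133 and 1873 in GPR43 KO. The Chgb signal was 5584 and 7147 in WT, 6834 and 7664 in GPR41 KO, and 9311 and 5360 in GPR43 KO. In both granins the library labelled GPR43 KO replicate 1 was the highest of the 6 arrays, and the groups overlapped. The log2 fold change of Chga was 0.28 ± 0.24 in GPR41 KO (limma adjusted p = 0.578) and 0.22 ± 0.24 in GPR43 KO (limma adjusted p = 0.661). That of Chgb was 0.20 ± 0.24 (limma adjusted p = 0.706) and 0.16 ± 0.24 (limma adjusted p = 0.756). The 95% interval of the ratio of KO to WT for Chgb was 0.787 to 1.67 in GPR41 KO and 0.768 to 1.63 in GPR43 KO.

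Neurod1 is a transcription factor of the enteroendocrine lineage that acts after Neurog3. It lies on chromosome 2 at 79452637 to 79456636 and was the weakest of the 10 genes' readings, with 2 probe sets. For the probe set used in the fit, WT arrays read 185.2 and 170.4, GPR41 KO arrays 193.5 and 205.0, and GPR43 KO arrays 236.9 and 233.1. In this probe set the groups did not overlap and stood in the order WT, GPR41 KO, GPR43 KO, with log2 fold changes of 0.15 ± 0.23 (limma adjusted p = 0.766) and 0.37 ± 0.23 (limma adjusted p = 0.412). In the remaining probe set the WT arrays read 187.2 and 246.7, the GPR41 KO arrays 146.5 and 252.0 and the GPR43 KO arrays 194.4 and 175.6, with log2 fold changes of -0.14 and -0.20. The Neurod1 probe sets thus disagreed in direction, and no direction is given for the gene.

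**Figure D2:**
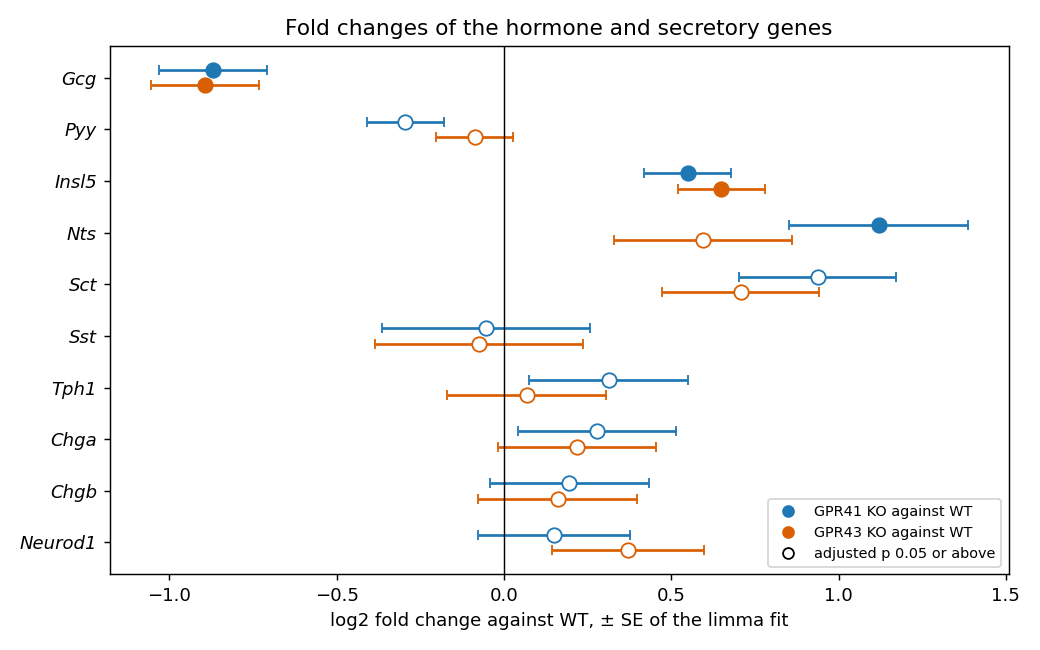
Log2 fold change of the 10 genes against WT (x axis) with the SE of the limma fit, in GPR41 KO (blue) and GPR43 KO (orange); filled points have an adjusted p under 0.05. Gcg is the gene farthest below 0 in both comparisons, at -0.87 and -0.89, and Insl5, Nts and Sct lie above 0.

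Arrays of GPR41 KO and WT did not overlap for 7 of the 10 genes, 5 higher and 2 lower, beside 49.9% of all genes tested (24.6% higher and 25.3% lower). For GPR43 KO this held for 4 of the 10 genes, 3 higher and 1 lower, beside 50.6% of all genes tested (27.7% higher and 22.9% lower). An unadjusted limma p under 0.05 was reached by 5 of the 10 genes in GPR41 KO, beside 19.5% of all genes, and by 3 of the 10 in GPR43 KO, beside 20% of all genes. The genes with an unadjusted limma p under 0.05 were Gcg, Insl5 and Sct in both KO groups, with Pyy and Nts added in GPR41 KO. The higher genes without overlap were Insl5 and Sct in both KO groups, with Nts and Tph1 added in GPR41 KO. Both counts without overlap also hold Neurod1 by the probe set used, while its other probe set overlapped with WT and had a negative log2 fold change. The lower genes without overlap were Gcg in both and Pyy in GPR41 KO. Between the KO groups, 0 of the 10 genes passed in limma, 0 had an unadjusted p under 0.05, and the arrays did not overlap for 2 of the 10: Pyy, higher in GPR43 KO, and Neurod1, for which this held in 1 of its 2 probe sets. Over all genes tested 0% passed in that comparison, with 5.46% at an unadjusted limma p under 0.05 and 37.8% without overlap (23.1% higher and 14.8% lower in GPR43 KO). For Gcg the difference of GPR43 KO from GPR41 KO was -0.024 ± 0.16 on the log2 scale, with a 95% interval of -0.39 to 0.34, and for Insl5 it was 0.10 ± 0.13, with an interval of -0.20 to 0.40.

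Within the groups, several of the genes moved together from array to array. In GPR43 KO, the library labelled replicate 1 exceeded replicate 2 by 2.13 times for Sst, 1.74 times for Chgb, 1.67 times for Chga, 1.64 times for Tph1, 1.60 times for Nts and 1.46 times for Sct. The same 6 genes were higher in WT replicate 2 than in WT replicate 1, by 1.23 times (Chga) to 1.57 times (Sct). Among the GPR41 KO arrays 5 of the 6 were higher in replicate 2, by 1.03 times (Tph1) to 1.43 times (Nts), and Sst was at 0.986 times. Pyy had the same order with smaller differences: replicate 2 was at 1.10 times replicate 1 in WT and at 1.05 times in GPR41 KO, and replicate 1 at 1.04 times replicate 2 in GPR43 KO. Gcg and Insl5 had the opposite order in WT, where replicate 1 was at 1.38 and 1.17 times replicate 2. Over all genes tested, the median log2 difference between the arrays of a group lay between -0.021 and 0.040. Across the 6 arrays Pearson's r of log2 signals was 0.97 between Chga and Chgb, 0.93 between Chgb and Tph1, 0.95 between Nts and Sct, -0.89 between Gcg and Sct and -0.82 between Gcg and Insl5, a description of 6 arrays that includes the group differences.

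**Figure D3:**
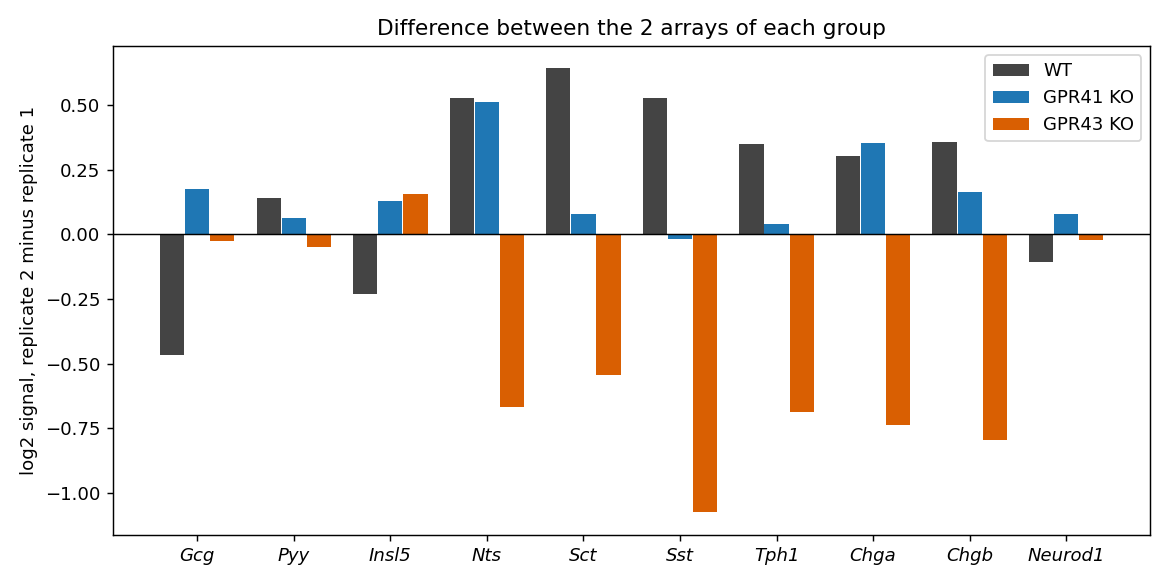
Difference in log2 signal between the arrays of each group (replicate 2 minus replicate 1) for the 10 genes, with WT in grey, GPR41 KO in blue and GPR43 KO in orange. Nts, Sct, Sst, Tph1, Chga and Chgb lie below 0 in GPR43 KO and above 0 in WT, with Sst at -1.08 in GPR43 KO.

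Set against the granins of the same array, a scaling chosen after the data were seen, the differences from WT kept their direction for Gcg, Pyy, Insl5, Nts, Sct and Sst. On the log2 scale and relative to the WT mean, Gcg over the mean of Chga and Chgb stood at -1.06 and -1.15 in the GPR41 KO arrays, at -1.45 and -0.71 in the GPR43 KO arrays, and at 0.40 and -0.40 in the WT arrays. Nts relative to the granins was at 0.76 and 1.01 in GPR41 KO and at 0.36 and 0.46 in GPR43 KO, with WT at -0.10 and 0.10. Sct stood at 0.79 and 0.61 in GPR41 KO and at 0.41 and 0.63 in GPR43 KO, with WT at -0.16 and 0.16. For Gcg, Nts and Sct the arrays of both KO groups thus lay apart from WT on this scale, which for Nts in GPR43 KO they did not on the deposited scale, whereas Insl5 was at 0.38, 0.25, -0.0016 and 0.92, across WT values of 0.28 and -0.28. None of these passed in limma on that scale, in which every gene carries the spread of the granins (adjusted p = 0.306 and 0.441 for Gcg). Sst also lay apart from WT relative to the granins, in part by small margins, whereas its groups overlapped on the deposited scale. It was at -0.15 and -0.43 in GPR41 KO, -0.11 and -0.42 in GPR43 KO, and -0.099 and 0.099 in WT.

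Other genes of enteroendocrine cells are given by list, and their counts stand beside the 4.99% of all genes that passed in GPR41 KO and the 3.96% in GPR43 KO. Of 7 further gut hormones and peptides, 3 were above the filter on weak genes: 1 fell and 2 did not pass in each KO group. The one that fell was Penk, which encodes enkephalin and is expressed by enteric neurons as well. Its signal was 1663 and 1658 in WT, 529.2 and 824.8 in GPR41 KO, and 706.2 and 655.5 in GPR43 KO, with log2 fold changes of -1.30 (limma adjusted p = 0.00755) and -1.26 (limma adjusted p = 0.0114). The Penk call in GPR43 KO was lost without GPR43 KO replicate 2 (limma adjusted p = 0.0831), and without WT replicate 1 the list's count was 2 in each KO group. The cholecystokinin gene Cck gave 341.1 and 658.2 in WT and 200.2 to 276.0 in the arrays labelled KO (log2 -0.94 and -0.96, limma adjusted p = 0.149 and 0.144). The substance P gene Tac1 stood at -0.42 and -0.29 and did not pass.

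Of 17 enteroendocrine transcription factors, 14 had a probe set and 5 were tested, of which 0 passed in GPR41 KO and 1 rose in GPR43 KO. That gene was Neurog3, the factor that commits epithelial progenitors to the enteroendocrine lineage. Its signal was 132.6 and 128.3 in WT, 222.7 and 290.3 in GPR41 KO, and 297.4 and 313.0 in GPR43 KO. All 4 arrays labelled KO lay above WT, with log2 fold changes of 0.87 ± 0.24 (limma adjusted p = 0.0761) and 1.12 ± 0.24 (limma adjusted p = 0.0361). The Neurog3 call in GPR43 KO was lost when any of the 6 arrays was left out in turn (limma adjusted p = 0.0506 to 0.189), and the signals are weak.

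Of 24 genes of granules and peptide processing, 21 were tested. In GPR41 KO 1 of these rose and 20 did not pass, with a median log2 fold change of -0.10. There 9 of the 21 values were positive and 12 negative. An unadjusted limma p under 0.05 was reached by 7, beside 19.5% of all genes. In GPR43 KO 0 passed in limma (4 at an unadjusted p under 0.05, beside 20% of all genes), with a median of 0.0048. The gene that rose was Syt7, a calcium sensor of exocytosis, from 1221 and 1028 in WT to 1830 and 1816 in GPR41 KO (log2 0.69, limma adjusted p = 0.0208). This call was lost without WT replicate 2 (limma adjusted p = 0.102) and without either GPR41 KO array (0.125 and 0.109), and without WT replicate 1 the list's count was 2 in each KO group. Of 16 sensing receptors and channels, 12 had a probe set and 4 were tested. In GPR41 KO 1 of these fell, Kcnj11, a subunit of the ATP-sensitive potassium channel, from 1921 and 2064 in WT to 847.0 and 1063 (log2 -1.05, limma adjusted p = 0.0169), and in GPR43 KO 0 passed in limma (2 at an unadjusted p under 0.05). The Kcnj11 call was lost without WT replicate 2 (limma adjusted p = 0.0621) or GPR41 KO replicate 1 (0.126). The list's count in GPR41 KO was 2 without either GPR43 KO array, and in GPR43 KO it was 1 without the library labelled GPR43 KO replicate 1.

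Some markers of other cell types also differed from WT, beside the 4.99% of all genes that passed in GPR41 KO and the 3.96% in GPR43 KO. Of 15 tested markers of enteric neurons and glia, 3 fell and 12 did not pass in GPR41 KO (Gal, Vip and Hand2), and 1 fell and 14 did not pass in GPR43 KO (Gal), with median log2 fold changes of -0.46 and -0.31. The summed signal of all 20 such markers with a probe set was 11887 and 15241 in WT, 6963 and 8608 in GPR41 KO, and 10341 and 7737 in GPR43 KO. Enteric neurons also express Sst, Chgb, Penk and Tac1, and the part of neurons in the values of these genes was not tested. The neuron and glia count in GPR41 KO was 0 without GPR41 KO replicate 1 and 2 or 3 when any 1 of the other arrays was left out, and in GPR43 KO it was 0 without WT replicate 2 or GPR43 KO replicate 2 and 2 without WT replicate 1.

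Among epithelial types, 1 of 12 goblet cell markers rose and 11 did not pass in GPR41 KO, and 2 rose and 10 did not pass in GPR43 KO, with medians of 0.36 and 0.50. Those that rose were Agr2, a protein-folding enzyme of mucus secretion, in both groups (log2 0.65 and 0.75), and Spink4 in GPR43 KO (1.05). Without WT replicate 1 the goblet count was 5 in each KO group, and when any 1 of the other arrays was left out it was 0 in each. All 8 pan-epithelial markers had positive log2 fold changes in both groups, with medians of 0.21 and 0.35, of which 1 rose in GPR41 KO (Vil1, the microvillus protein villin, log2 0.58) and 0 passed in limma in GPR43 KO (5 at an unadjusted p under 0.05). The pan-epithelial count in GPR41 KO was 2 without WT replicate 1 and 0 when any 1 of the other arrays was left out, and in GPR43 KO it was 1 without WT replicate 1 or WT replicate 2. The value of Insl5 in GPR41 KO, 0.55, was near the top of the pan-epithelial range of 0.12 to 0.58. Its value in GPR43 KO, 0.65, was above the pan-epithelial range there of 0.30 to 0.43. Both Insl5 values lay inside the goblet ranges, 0.040 to 1.08 in GPR41 KO and 0.14 to 1.27 in GPR43 KO. Sct (0.94 and 0.71) and Nts (1.12 and 0.60) lay above the pan-epithelial range in both groups. Gcg, at -0.87 and -0.89, lay below all of these ranges.

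A few markers of absorptive cells and of proximal colon also passed, beside 4.99% of all genes tested in GPR41 KO and 3.96% in GPR43 KO. Of 11 absorptive colonocyte markers, 1 rose and 10 did not pass in each KO group, with medians of 0.38 and 0.44. The one that rose was the water channel Aqp8, at 2840 and 1106 in WT and 5394 to 7725 in the arrays labelled KO (log2 2.03 and 1.83, limma adjusted p = 0.0145 and 0.0284). The absorptive count was 3 in each KO group without WT replicate 1. It was 0 in GPR41 KO without either GPR41 KO array, and in GPR43 KO it was 2 without WT replicate 2 and 0 when any 1 of the arrays labelled KO was left out. Of 4 genes known for higher levels in proximal colon, 2 rose and 2 did not pass in each KO group, with medians of 1.50 and 1.80. Those that did not pass were Osr2 (log2 0.38 and -0.0040) and Ang4 (2.12 and 2.57). Both medians depend on Ang4, whose arrays differed widely within each group. Its signal was 8879 and 1138 in WT, 38044 and 5056 in GPR41 KO, and 50573 and 7178 in GPR43 KO. Slc37a2, a sugar phosphate transporter, was at 164.9 and 114.4 in WT and 577.6 to 1441 in the arrays labelled KO (log2 2.75 and 2.58, limma adjusted p = 0.00443 and 0.00815). Cyp2c55, a cytochrome P450, was at 22490 and 31459 in WT and 46618 to 56443 in the arrays labelled KO (log2 0.89 and 1.03, limma adjusted p = 0.0250 and 0.0163). The proximal count in GPR41 KO was 1 when any 1 of the arrays labelled KO was left out, and in GPR43 KO it was 1 without either GPR43 KO array. Of 6 tested posterior Hox genes, which mark distal position, and of 5 tested tuft cell markers, 0 passed in limma in either group (1 of each list at an unadjusted p under 0.05 in each group). Enteroendocrine hormones are known to vary in level along the colon, and the part of colon region in the differences of Gcg, Insl5, Nts and Sct was not tested.

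The part of epithelial share in the rises of Insl5 and of Nts, and that of neutrophil signal in the fall of Gcg, was not tested.

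**Figure D4:**
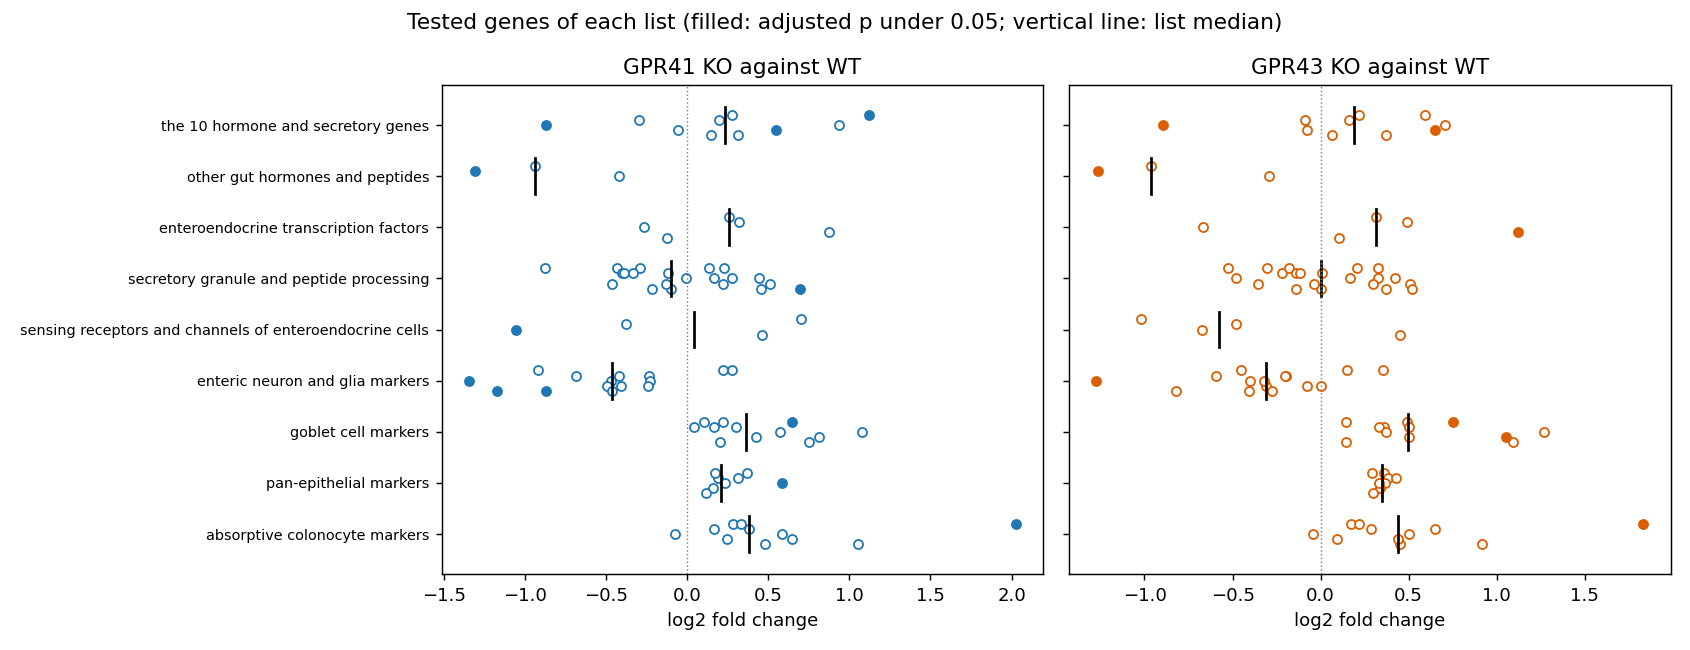
Log2 fold change against WT (x axis) of the tested genes of each list, in GPR41 KO (left) and GPR43 KO (right); filled points have an adjusted p under 0.05 and black lines are list medians. The 10 hormone and secretory genes spread from -0.87 to 1.12 in GPR41 KO and from -0.89 to 0.71 in GPR43 KO, while the neuron and glia medians lie at -0.46 and -0.31.

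For the joint pattern of the L cell hormones, the mean of the standardised log2 signals of Gcg, Pyy and Insl5 was 0.41 and 0.18 in WT, -0.63 and -0.23 in GPR41 KO, and 0.12 and 0.15 in GPR43 KO. Because Gcg and Insl5 stood on opposite sides, this mean follows neither closely. The 5 genes with the highest Pearson's r to it over 6 arrays were Camk1 (0.99), Nupr1 (0.99), Casp9 (0.98), Ptbp2 (0.98) and Jpx (0.97), and 93 of 10906 genes had an r over 0.9.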

How the data were processed

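Total RNA from 6 colon samples was labelled with biotin from 2 µg and hybridised to 1 array each, per the labels. The authors computed a linear MAS5 intensity for each probe set, per the submitters' processing notes (trimmed mean 500.0 in every array). MAS5 subtracts background, so weak signals are unstable. Of 45101 probe sets, 34945 carried 1 gene symbol, 932 several and 9211 none, and 64 array controls were left out. Each gene was read by the probe set with the highest mean log2 signal, and genes above the 40th percentile of mean log2 signal were tested, 10916 of 18193, among them all 10 hormone and secretory genes. A pseudocount of 18.4 (20th percentile) was added before log2, and fold changes are on that scale. Ratios of means are of the deposited intensity. Groups came from the sample titles. All 6 arrays entered 1 fit of group means in limma 3.58.1 with R 4.3.3 (intensity trend; 3 residual degrees of freedom, raised to 8.71). Tests are two-sided, adjusted by Benjamini-Hochberg over the 10916 genes (threshold 0.05). An exact permutation test of 2 arrays against 2 could not go below 0.333. The rule for names outside the 10 allowed up to 4 members of each list that passed (by the smallest p), those in counts of 5 or fewer, Ffar2 and the 5 genes with the highest correlation to the mean of Gcg, Pyy and Insl5. Neutrophil genes that it allows are not named. Cck, Tac1, Ctrb1, Cpa1, Clps, Ins2, Ppy, Slc30a8, Osr2 and Ang4 were added after their values were seen. The 10 genes and all lists were chosen with earlier results of these data known. In simulated data with 10916 genes for GPR41 KO against WT, 0% of 200 genes shifted by 0.5 on the log2 scale were recovered, 39.7% of those shifted by 1 and 89.4% of those shifted by 2. In such data, differences of the size of many here would often be missed. No other genes differed in the simulation, whereas 545 passed in GPR41 KO, so the shares need not be those of the real arrays. The number of arrays limits the precision. Alternatives covered pseudocount, filter, scaling, probe set rule, trend, samples in the fit, replicate block and leaving out each array. Promoter sequences are from RefSeq (GRCm38.p6).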

Additional observations from a re-analysis of the deposited data

How the results depend on the processing

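Over the alternatives, 459 of 531 refitted fold changes, each for 1 gene, comparison and setting, kept their direction and side of the threshold. Of the rest, 44 were labelled weaker, 6 stronger and 22 reversed. Most of the 531 belong to a gene that did not pass in that comparison, so the share does not describe how stable the calls were. The count of the 10 genes that changed in GPR41 KO was 3. It was 1 with a pseudocount of 1, no filter, the filter at the 60th percentile, quantile normalization, the mean over probe sets or every probe set, and 0 with no intensity trend. In GPR43 KO the count of 2 was 0 with no intensity trend and 1 with only the 2 groups compared in the fit. Over arrays left out in turn it ranged from 0 to 3 in GPR41 KO, from 0 to 2 in GPR43 KO and was 0 between the KO groups. All genes changed were 545 in GPR41 KO (335 with the filter at the 60th percentile, 363 with no trend, 195 to 892 over arrays left out), 432 in GPR43 KO (280, 217, 129 to 761) and 0 between the KO groups (1 with every probe set, 1 with only the 2 groups compared, 0 to 3 over arrays left out). Centring each array on its median gave 314 higher and 339 lower in GPR41 KO, against 205 and 340. The values that turned belong to genes that did not pass in that comparison. Sst in GPR41 KO was 0.040 with median centring. Gcg between the KO groups was 0.0033 with quantile normalization. Scaled to the granins, Neurod1 in GPR41 KO was -0.086 and Tph1 in GPR43 KO -0.12, and between the KO groups Gcg was 0.023 and Sst 0.026. Over arrays left out, Sst ranged from -0.32 to 0.21 in GPR41 KO. In GPR43 KO the ranges were -0.15 to 0.59 for Chga, -0.24 to 0.56 for Chgb, -0.61 to 0.46 for Sst and -0.28 to 0.41 for Tph1. Between the KO groups they were -0.11 to 0.063 for Gcg, -0.43 to 0.31 for Chga, -0.43 to 0.36 for Chgb, -0.50 to 0.042 for Sct, -0.56 to 0.52 for Sst and -0.59 to 0.099 for Tph1. The cause was not tested.

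With the replicate number as a block the count was 1 of the 10 genes in each KO group, Gcg, and 401 and 295 of all genes. The numbers do not pair the arrays: same-numbered deviations correlated over genes at 0.11 between WT and GPR41 KO, -0.27 between WT and GPR43 KO and -0.054 between the KO groups.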
